A study of Mus musculus with 33 samples.

Results

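The cytosolic heat shock proteins described here are 9 chaperone genes, *Hspa1a*, *Hspa1b*, *Hspa8*, *Hsph1*, *Dnajb1*, *Dnaja1*, *Hspb1*, *Hsp90aa1* and *Hsp90ab1*, taken by symbol from a table of 21565 genes, in which all 9 were listed. Their mRNA was measured by RNA-seq of polyadenylated RNA in the frontal cortex (FC) of 33 adult male mice on a C57BL/6J background, killed at ZT6, after a period in constant darkness before the day of the experiment. WT mice were free to sleep (control sleep, CS, n = 6), kept awake for 6 hr on a slow treadmill (sleep deprived, SD, n = 7), or kept awake for 4 hr and then left to sleep for 2 hr (recovery sleep, RS, n = 7). *Mef2c* f/f mice carry loxP sites around an exon that encodes part of the DNA-binding region of the transcription factor MEF2C, and had CS (n = 4) or SD (n = 3). Mef2c-cKO mice carry floxed *Mef2c* alleles and Camk2a-Cre, a transgene whose promoter is active in forebrain excitatory neurons, and had CS (n = 3) or SD (n = 3). The study's methods state that some offspring of this cross had 1 recombined allele in the tail, outside neurons. Of the Mef2c-cKO CS samples, the study describes 1 without such recombination and 2 with it. Developmental effects of a lower *Mef2c* dose in any cell type are named there as a possible contribution. Other cell types of the cortex can therefore not be taken to keep both floxed exons. Each library is 1 mouse, and in bulk tissue fewer cells of a type and less RNA per cell cannot be told apart.

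Cytosolic chaperones bind unfolded or newly made proteins. HSP70 proteins take up a client with the help of J-domain proteins, release it when a nucleotide exchange factor such as HSP110 acts, and can hand it to HSP90, while small heat shock proteins hold unfolded clients without ATP. Some of these genes are expressed in all cells at all times and others are switched on by the heat shock factor HSF1 when proteins misfold, and induction of heat shock genes in the cortex is a known accompaniment of extended waking.

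The heat shock element, the site that HSF1 binds, is built of GAA units that alternate in direction, so the promoters of the 9 genes were searched for the letters GAANNTTC or TTCNNGAA (2 units) and for GAANNTTCNNGAA or TTCNNGAANNTTC (3 units, each of which holds both 2-unit forms). RefSeq promoters of build GRCm38.p6, which run from 250 bases before to 50 bases after a start site, were at hand for *Hspa1a*, *Hspa1b*, *Hsph1*, *Dnajb1*, *Dnaja1* and *Hspb1*, and *Hspa8*, *Hsp90aa1* and *Hsp90ab1* had no entry. The search took in both strands. The 2-unit letters were present in 15.1% of 32851 promoters and the 3-unit letters in 0.603%. *Hspa1a*, *Hspa1b*, *Hspb1* and 1 promoter of *Dnaja1* held the 2-unit letters upstream of the start, and neither promoter of *Dnajb1* held either form. Both promoters of *Hsph1* held 1 match to the 3-unit letters, which ended after the start, and 3 matches to the 2-unit letters. The 2-unit match of *Hsph1* outside the 3-unit one was not placed and may lie upstream. The stretches around the upstream matches that were placed are given because these genes include the 3 with the largest rises in SD. They are written from 5′ to 3′ on the gene's strand, with the matched letters in capitals. They lie at chr17:34972238-34972275 (minus strand, *Hspa1a*), chr17:34959320-34959357 (minus strand, *Hspa1b*), chr5:135887787-135887844 (plus strand, *Hspb1*) and chr4:40722329-40722366 (plus strand, *Dnaja1*).
Hspa1a: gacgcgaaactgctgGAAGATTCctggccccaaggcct
Hspa1b: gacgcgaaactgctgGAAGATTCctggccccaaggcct
Hspb1: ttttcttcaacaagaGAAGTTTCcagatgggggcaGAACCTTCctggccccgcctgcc
Dnaja1: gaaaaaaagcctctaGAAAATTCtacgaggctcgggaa

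The matched stretch was the same in *Hspa1a* and *Hspa1b*, and their promoters were identical at 296 of 300 positions (98.7%). The transcribed parts are also alike, which bears on every value of this pair, since the authors counted uniquely mapped reads. Of the 150-base windows of the longest coding transcript in the GENCODE M21 annotation (GRCm38), 46% in *Hspa1a* (chr17:34969190-34972156, minus strand) and 40.5% in *Hspa1b* (chr17:34956436-34959238, minus strand) occurred unchanged in a transcript of another gene. The partner gene was the main one, with 38.1% of the windows of *Hspa1a* and 40.5% of those of *Hspa1b*. Read pairs that lie wholly in such stretches do not map uniquely, so the levels of both genes are too low by an unknown amount. The fragments were read from both ends, so the share of read pairs lost can be smaller than the share of windows. The 2 genes were also tested as a sum. Windows shared with other genes or processed pseudogenes made up 56% of *Hspa8*, 36.6% of *Hspb1*, 36.2% of *Hsp90aa1* and 20% of *Dnaja1*, and 0% of *Hsph1*, *Dnajb1* and *Hsp90ab1*.

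Whole reads could be recovered from the CPM (the authors' read counts scaled to the library total), and the libraries held 18935045 to 249046089 reads, with all 9 genes at 14 reads or more in every library. CPM were divided by a scaling factor per library, giving the rescaled CPM used for all levels below. Neuronal, glial and vascular marker genes were all detected at a CPM of 1 or more in every library. Scaling factors were 0.717 to 0.913 in WT CS, 0.980 to 1.08 in WT SD and 0.821 to 1.05 in WT RS, and replicate 2 of WT CS stood farthest from its group (mean Spearman rho with the others 0.978). The listed CPM of WT libraries summed to 925580 to 985958 and those of *Mef2c* f/f and Mef2c-cKO libraries to 1000000, so levels were not tested between WT and the other genotypes. *Mef2c*, the targeted gene, had 1079 to 1205 rescaled CPM in *Mef2c* f/f CS and 955 to 1724 in Mef2c-cKO CS, with ranges that overlapped, and reads summed over the gene do not check a deletion of 1 exon.

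Per kilobase of transcript, the 9 genes spanned 3 levels in WT CS. *Hspa8*, the constitutive HSP70, stood at 738 ± 174 rescaled CPM per kb (SD, n = 6), *Hsp90ab1*, the constitutive HSP90, at 520 ± 177 and *Hsp90aa1*, the inducible HSP90, at 376 ± 148, and the ranges of neighbours in this order overlapped. *Hsph1*, an HSP110, stood at 45.2 ± 12.9 and *Dnaja1*, a J-domain protein, at 33.6 ± 6.58, again with ranges that overlapped, and *Dnajb1*, the J-domain partner of inducible HSP70, at 7.46 ± 1.52, below every library of *Dnaja1*. The small heat shock protein *Hspb1* (1.22 ± 0.317) and the inducible HSP70 genes *Hspa1a* (0.830 ± 0.140) and *Hspa1b* (0.570 ± 0.389) were the lowest, and their ranges overlapped. This order is one of unique reads, so the share of windows that each gene has in common with others moves it. The sum of the 9 genes was 4699 ± 1397 rescaled CPM in WT CS and 4113 ± 1027 (SD, n = 7) in WT SD.

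In WT mice, 4 of the 9 genes rose from CS to SD and none fell, while 24.6% of the 12913 genes tested were called higher and 20.5% lower. Calls needed a change of 0.3 or more in either direction on the log2 scale and, by limma, a p of 0.05 or less after Benjamini-Hochberg adjustment. The 4 were *Hspb1*, *Hspa1b*, *Hspa1a* and *Dnajb1*, the members with the lowest mean levels in CS. The abundant *Hspa8*, *Hsp90aa1* and *Hsp90ab1*, with *Hsph1* and *Dnaja1*, were not called. The median log2 fold change of the 9 was 0.17, against 0.04 over all genes tested. The libraries of CS and SD did not overlap at all for 1 of the 9, *Hspb1*, a pattern that 4.68% of all genes tested had in the same direction.

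*Hspa1b*, which encodes inducible HSP70, had 0.764 rescaled CPM in the lowest WT CS library, a median of 1.40 and 3.73 in the highest. In WT SD the lowest was 3.25, the median 5.86 and the highest 9.61. In 6 of 7 SD libraries the level was above every CS library, and the remaining one lay between CS replicate 5 and the others. The log2 fold change was 1.75 ± 0.29 (SE), with an adjusted p of 0.000956 (limma).

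*Hspa1a*, its neighbour with nearly the same protein product, ran from 2.12 through a median of 2.36 to 3.18 in CS and from 2.75 through 5.01 to 7.94 in SD. Again 6 of 7 SD libraries were above all of CS. The log2 fold change was 0.94 ± 0.20, with an adjusted p of 0.00301 (limma). Summed over both genes, the level rose from 4.06 ± 1.40 (SD, n = 6) to 11.8 ± 4.40 (SD, n = 7), a difference of 1.39 on the log2(CPM + 0.5) scale, and the two-sided exact permutation test over 1716 splits gave p = 0.00175, or 0.0122 adjusted over the 7 comparisons made. The share of *Hspa1b* in the pair's reads also differed, at 36.8% ± 11.8 in CS and 53.6% ± 2.00 in SD, with an exact permutation p of 0.00233 (0.00466 adjusted over 2 comparisons, chosen after the values were seen). Without the 4 WT libraries of the lowest listed CPM sums, the summed pair had 1.22 and an adjusted exact permutation p of 0.133. The share of *Hspa1b* was 22.6% and 23.9% in CS replicates 1 and 2 and 38.9% to 53.9% in the other 4 CS libraries. CS replicates 1 and 2 are among the 4 libraries of the lowest sums (939167 and 938651). The share was not tested without these libraries. In RS it was 52.3% ± 8.99, with an exact permutation p of 0.0256 against CS.

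*Hspb1*, a small heat shock protein that binds unfolded clients and actin filaments, had 0.617 to 1.40 rescaled CPM in CS with a median of 1.196. In SD it had 1.91 to 4.61 with a median of 2.18, and every SD library was above every CS library. The log2 fold change was 0.95 ± 0.19, with an adjusted p of 0.00250 (limma). The reads behind it were few, 25 to 218 in a CS library and 143 to 545 in an SD library.

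*Dnajb1*, which stimulates the ATPase of HSP70, had 14.9 in the lowest CS library, a median of 22.4 and 28.5 in the highest. In SD it went from 22.8 through a median of 31.4 to 42.8, and 5 of 7 libraries were above all of CS. The log2 fold change of 0.50 ± 0.15 had an adjusted p of 0.0144 (limma). It was the smallest of the 4 called changes, and it was not called without the 4 libraries of the lowest listed CPM sums (0.34, adjusted p = 0.0829) or with a replicate block (0.56, adjusted p = 0.0826).

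**Figure D1:**
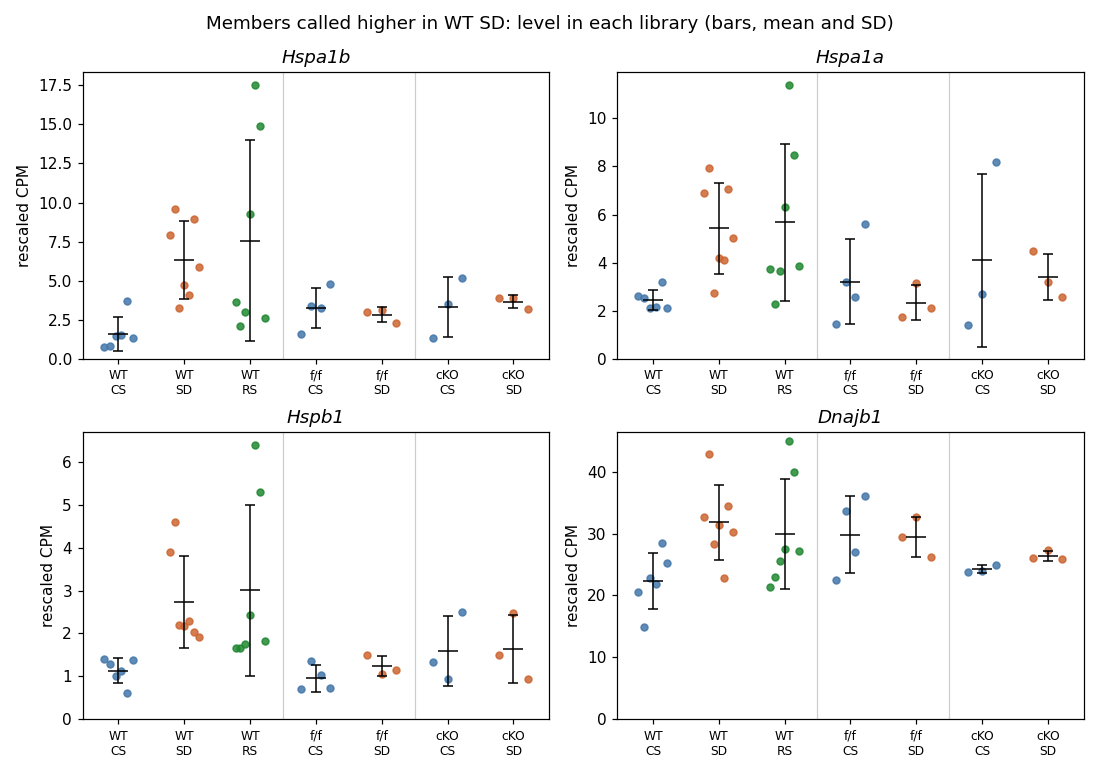
Rescaled CPM (vertical axes, from 0) of *Hspa1b*, *Hspa1a*, *Hspb1* and *Dnajb1* in each of the 33 libraries, by genotype and sleep group. Points are libraries, coloured by sleep condition, and the bars are the mean and SD of the group. In WT, 6 of 7 SD libraries were above all CS libraries for *Hspa1b* and *Hspa1a* and 7 of 7 for *Hspb1*. Of all genes tested, 4.68% had every SD library above every CS library. RS libraries of *Hspa1b* went from 2.10, within the range of CS, to 17.5, the highest of all. Those of *Hspb1* were all above CS, and the share of all genes with that pattern was not counted. In *Mef2c* f/f and in Mef2c-cKO mice the CS and SD libraries overlapped for *Hspa1b*, *Hspa1a* and *Hspb1*.

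The abundant members did not pass the test in the same comparison. *Hspa8* had a log2 fold change of -0.11 ± 0.18, with 1402 to 2427 rescaled CPM in CS (median 1604) and 1253 to 2439 in SD (median 1463). *Hsp90ab1* had -0.19 ± 0.22 (95% interval -0.66 to 0.27), and *Hsp90aa1* -0.37 ± 0.21 (95% interval -0.81 to 0.07), with 3 of 7 SD libraries below all of CS. The intervals include falls of over 0.3 for both HSP90 genes and for *Hspa8* (95% interval -0.48 to 0.27). A fall of the size that would count as a call was therefore not excluded for any of these genes.

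*Hsp90aa1* was widest in CS, where it went from 799.5 through a median of 1102 to 2080 rescaled CPM, the highest being replicate 2, and in SD it went from 760.03 through 851 to 1236. *Hsph1* had 122 to 250 in CS and 145 to 263 in SD, a log2 fold change of 0.17 ± 0.18. *Dnaja1*, which works with the constitutive HSP70, had 153 to 251.5 in CS and 154 to 242 in SD, a log2 fold change of -0.01 ± 0.13. For *Hsph1* and *Dnaja1* the groups overlapped through most of their range. For *Hsp90aa1*, CS replicates 1, 2 and 3 (1446, 2080 and 1293) lay above every SD library.

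The 4 called genes are given here beside a trend of the changes over all genes with base composition. Across 12442 genes the log2 fold change from WT CS to SD had a Spearman rho of 0.729 with GC content, and *Hspb1* (61.7% GC), *Hspa1a* (58.9%) and *Hspa1b* (58.1%) stood at percentiles 97.9, 92.9 and 90.3 of all genes, *Dnajb1* (52.7%) at 66.1 and *Dnaja1* (41.2%) at 13.04. After each library's log2 values were corrected for how they followed transcript length and GC content, 2 members were called higher, *Hspa1b* (log2 fold change 1.27 ± 0.25, adjusted p = 0.00286) and *Dnaja1* (0.39 ± 0.11, adjusted p = 0.0170). The other 3 lost their call, with 0.43 for *Hspa1a* (adjusted p = 0.136), 0.32 for *Dnajb1* (0.0751) and 0.11 for *Hspb1* (0.780). The sign of *Dnaja1* turned under this correction, and *Hspa8* turned from -0.11 to a called 0.50 (adjusted p = 0.0253) under quantile normalization. With CPM as deposited, the median over all genes moved to 0.30 (6106 genes called higher and 801 lower, against 3182 and 2643), the 4 genes were called with log2 fold changes of 0.77 to 1.94, *Hsph1* was called as well (0.44, adjusted p = 0.0258), and *Dnaja1* (0.27, adjusted p = 0.0490), *Hspa8* (0.17) and *Hsp90ab1* (0.08) changed sign without reaching the size of a call.

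Markers of other cells also moved with the groups, beside 24.6% of all genes tested called higher in WT SD and 20.5% lower. All 5 blood genes tested were called higher in WT SD, their sum going from 28.2 to 118 rescaled CPM in CS and from 97.8 to 285 in SD, and none was at 0 in all libraries. Of 6 meningeal fibroblast genes 5 were tested and 3 were called higher, the sum going from 8.81 to 38.7 in CS and from 44.4 to 72.1 in SD. Of 6 endothelial genes 1 was called higher and 2 lower, with sums of 219 to 257 in CS and 185 to 224 in SD. Of 6 genes in each further list, astrocytes had 3 called higher and 0 lower, and inhibitory neurons 2 and 0. Pericytes and smooth muscle had 2 and 1, and excitatory neurons 1 and 1. The oligodendrocyte lineage had 0 and 1, as did microglia and macrophages. Within groups, over the 20 WT libraries, *Hspa1b* had a Pearson r of 0.482 with the blood sum (permutation p = 0.00559, adjusted over 13 relations 0.0242), -0.506 with the endothelial sum (adjusted permutation p = 0.0991) and -0.147 with the fibroblast sum (adjusted permutation p = 0.609). The part of these cells in the changes was not tested.

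After 2 hr of recovery sleep, 3 of the 9 genes were called higher than in CS and none lower, where 9.28% of the 12752 genes tested were called higher and 8.22% lower. They were *Hspa1b* (log2 fold change 1.67 ± 0.47, adjusted p = 0.0384), *Hspb1* (0.95 ± 0.28, adjusted p = 0.0405) and *Hspa1a* (0.91 ± 0.28, adjusted p = 0.0422), all by limma. *Dnajb1* had 0.39 ± 0.18 (adjusted p = 0.107), and the other 5 lay between -0.23 (*Hsp90aa1*) and 0.21 (*Hsph1*). All 3 calls ended with the correction for GC content and length, where *Hspa1b* had 1.27 (adjusted p = 0.0703). They also ended without CS replicate 1, 2 or 3 or RS replicate 3, 4, 5, 6 or 12, where the count fell to 0. Calls over all genes fell with them, from 2232 to 0 without CS replicate 3 or RS replicate 3, 5, 6 or 12, 3 without RS replicate 4, 98 without CS replicate 2 and 223 without CS replicate 1. With a replicate block 4279 genes were called, and *Dnajb1* was called as well (0.40, adjusted p = 0.0181). With CPM as deposited, 2350 genes were called higher and 315 lower, against 1184 and 1048, and the same 3 members were called.

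The RS libraries fell into a wide range. *Hspa1b* had 2.10, 2.59, 2.97 and 3.66 rescaled CPM in replicates 2, 12, 3 and 1, and 9.28, 14.9 and 17.5 in replicates 4, 6 and 5. The first 4 lay below the highest CS library, and replicates 5 and 6 lay above every SD library. *Hspa1a* was 2.28 to 3.88 in the same 4 and 6.30, 8.47 and 11.4 in the other 3.

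*Hspb1* followed the same split, at 1.65 to 1.82 in replicates 1, 2, 3 and 12, all above CS, and 2.43, 5.31 and 6.41 in replicates 4, 6 and 5. The share of all genes tested with every RS library above every CS library was not counted. *Dnajb1* had 21.4 to 27.5 in 5 libraries and 40.0 and 44.9 in replicates 6 and 5. For the summed *Hspa1a* and *Hspa1b*, the level in RS was 13.2 ± 9.62 (SD, n = 7), and the difference from CS was 1.34 on the log2 scale (exact permutation p = 0.00641, adjusted over 7 comparisons 0.0224, and 0.183 without the 4 libraries of the lowest listed CPM sums).

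The abundant members overlapped between RS and CS. *Hspa8* had 1361 to 2248 rescaled CPM in RS (median 1758), *Hsp90ab1* 954 to 1414 (median 1229) and *Hsp90aa1* 848 to 1160.1 (median 949). *Hsph1* had 166 to 285 (median 176) and *Dnaja1* 168 to 207.

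Between SD and RS in WT, 0 of the 9 genes were called with limma, where 0.0232% of genes were called in either direction, and none of the 9 had an unadjusted p of 0.05 or less. No member was called by edgeR or DESeq2 either. The log2 fold changes lay between -0.11 (*Dnajb1*) and 0.14 (*Hsp90ab1*). The interval for *Hspa1b* ran from -0.98 to 0.82, so a return towards CS or a further rise by nearly 2-fold was not excluded. The summed pair differed by -0.05 (exact permutation p = 0.900, adjusted 0.914).

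**Figure D2:**
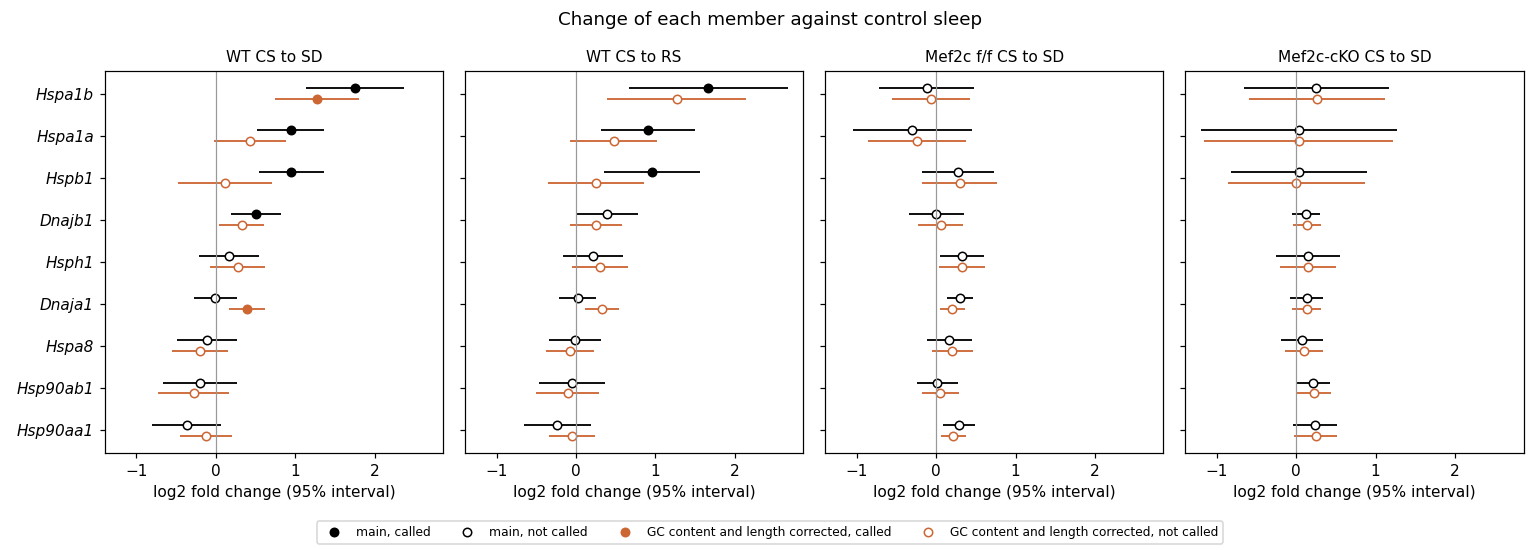
Log2 fold change on the log2(CPM + 0.5) scale (horizontal axes) with its 95% interval for each member in 4 comparisons against CS. Black points are the main limma fit and orange points the values corrected for GC content and transcript length, filled where the gene was called. In WT the 4 filled black points of CS to SD run from 0.50 to 1.75 and 2 corrected points are filled, and in *Mef2c* f/f and Mef2c-cKO no point is filled.

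In *Mef2c* f/f mice, 0 of 9 genes were called between CS and SD with limma, and 0.0403% of the 12410 genes tested were called in either direction. The genes called in WT SD did not show the WT pattern of values. *Hspa1b* had 1.61, 3.37, 3.25 and 4.76 rescaled CPM in the 4 CS libraries and 3.02, 3.14 and 2.26 in the 3 SD libraries, all within the range of CS, with a log2 fold change of -0.12 ± 0.27. *Hspa1a* had 1.46, 3.20, 2.58 and 5.62 in CS and 1.74, 3.17 and 2.11 in SD, also within the range of CS, with -0.30 ± 0.33. For the summed pair the difference was -0.21 (exact permutation p = 0.629, adjusted 0.914), where the smallest p that 4 against 3 libraries allow is 0.0286.

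*Dnajb1* had 22.4, 33.6, 27.0 and 36.1 in CS and 29.5, 32.7 and 26.2 in SD, a log2 fold change of 0.00 ± 0.16. *Hspb1* had 0.692, 1.36, 1.03 and 0.716 in CS and 1.499, 1.06 and 1.14 in SD, with 14 to 48 reads in a CS library, and 0.27 ± 0.20. In these libraries the 3 lowest unadjusted p-values of the 9 belonged to *Dnaja1*, *Hsp90aa1* and *Hsph1*, and no member passed after adjustment.

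*Dnaja1* had 227, 204, 201 and 198 in *Mef2c* f/f CS and 256.0, 256.4 and 255.2 in SD. The groups did not overlap, the 3 SD libraries differed by about 1 CPM, and the log2 fold change was 0.30 ± 0.07 (adjusted p = 0.122, limma). *Hsp90aa1* had 951, 881, 830.4 and 793.5 in CS and 1049, 1022 and 1087 in SD, without overlap, with 0.29 ± 0.09 (adjusted p = 0.180). The share of all genes tested without overlap between these groups was not counted. *Hsph1* had 160.3, 192, 184 and 227 in CS and 224, 272 and 219 in SD, with overlap, and 0.32 ± 0.12 (adjusted p = 0.231). *Hspa8* had 1039, 1304, 1187 and 1495 in CS and 1383, 1519 and 1303 in SD, and *Hsp90ab1* had 896, 1005, 916 and 1214 in CS and 987, 1062 and 990.1 in SD, both with overlap. *Dnaja1* was called where CS replicate 1 was left out (0.34, adjusted p = 0.0360), a fit in which 590 of 12433 genes were called against 5, and in 0 of the other 6 fits that leave out 1 library.

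In Mef2c-cKO mice, 0 of 9 genes were called between CS and SD with limma, where 0.0234% of 12810 genes were called in either direction, and 0 had an unadjusted p of 0.05 or less. *Hspa1b* had 1.34, 3.51 and 5.16 in CS and 3.89, 3.89 and 3.16 in SD, a log2 fold change of 0.25 ± 0.39. *Hspa1a* had 1.39, 2.71 and 8.18 in CS and 4.47, 3.19 and 2.57 in SD, 0.03 ± 0.52. The SD libraries lay inside the range of CS for both genes, and CS replicate 8 was the highest for both. That library also had the highest sums of astrocyte (2763 rescaled CPM, against 1097 and 1099 in the other 2) and microglia and macrophage markers (420.01, against 165 and 192), whose part was not tested.

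All 3 SD libraries of Mef2c-cKO were above all 3 of CS for *Dnajb1* (23.8, 24.0 and 24.9 in CS, 26.0, 27.3 and 25.9 in SD) and *Hsp90ab1* (1019, 1045 and 1071 in CS, 1158, 1257 and 1209 in SD). The log2 fold changes were 0.12 ± 0.07 and 0.21 ± 0.09, and the adjusted p was 0.998 for each (limma). The share of all genes tested without overlap was not counted here, so the separation of these genes has no background to be set against. *Hsp90aa1* had 900.4, 859 and 820 in CS and 1014, 1143 and 888 in SD, with overlap, and 0.23 ± 0.12. *Hspa8* had 1288, 1379 and 1537 in CS and 1442, 1538 and 1433 in SD, *Hsph1* had 201 to 294 in CS and 233 to 293 in SD, and *Dnaja1* had 222, 214 and 217 in CS and 242, 262 and 215 in SD, each with overlap. *Hspb1* ran from 0.942 to 2.51 in CS and from 0.931 to 2.48 in SD.

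Between Mef2c-cKO and *Mef2c* f/f mice, 0 of 9 genes were called in CS, where 7.67% of 12681 genes were called in either direction, and 0 of 9 in SD, where 15.1% of 12774 genes were. The limma log2 fold changes from *Mef2c* f/f to Mef2c-cKO in CS lay between -0.27 (*Dnajb1*) and 0.49 (*Hspb1*), and 0 had an unadjusted p of 0.05 or less. In SD, *Hsp90ab1* had 987, 1062 and 990.1 rescaled CPM in *Mef2c* f/f and 1158, 1257 and 1209 in Mef2c-cKO, so that every Mef2c-cKO library was higher. Its log2 fold change was 0.25 ± 0.08 (adjusted p = 0.0554, limma), under the threshold of size, and with CPM as deposited (0.33, adjusted p = 0.0216) or quantile normalization (0.44, adjusted p = 0.0111) it was called. *Hspa1b* was also higher in every Mef2c-cKO SD library than in every *Mef2c* f/f SD library (3.16 to 3.89 against 2.26 to 3.14), with 0.33 ± 0.15 and an adjusted p of 0.162, and the summed pair had 0.42 (exact permutation p = 0.2, where 3 against 3 libraries cannot go below 0.1). How many of all genes tested separated in this way in SD was not counted. The edgeR and DESeq2 fits made no call of a member in either comparison.

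**Figure D3:**
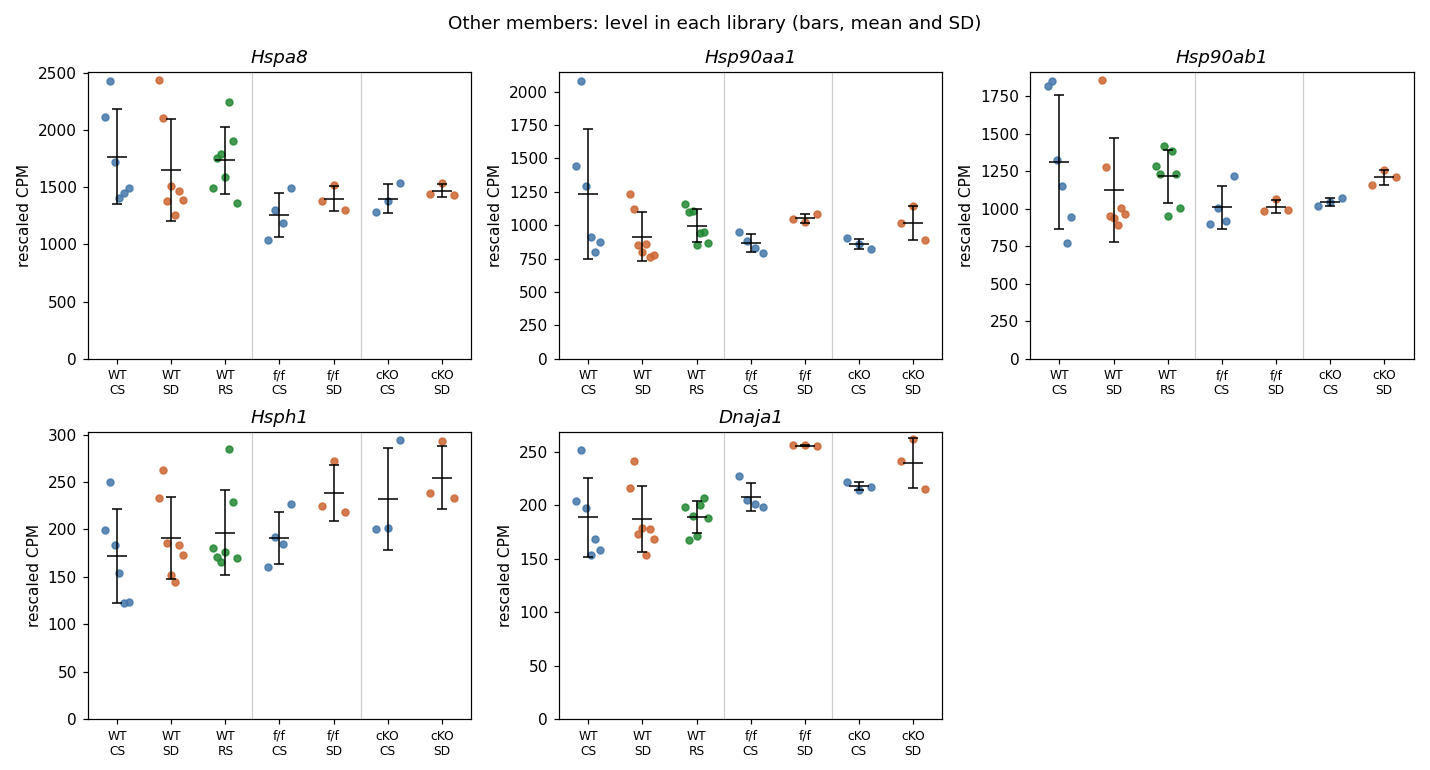
Rescaled CPM (vertical axes, from 0) of *Hspa8*, *Hsp90aa1*, *Hsp90ab1*, *Hsph1* and *Dnaja1* in each of the 33 libraries, by genotype and sleep group, with the mean and SD of the group as bars. WT CS replicate 2 was highest for *Hsp90aa1* at 2080. The 3 *Mef2c* f/f SD libraries of *Dnaja1* lay within about 1 CPM of each other and above the 4 of CS. The share of all genes tested with such a separation was not counted.

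Differences between responses were tested directly. The response to SD in Mef2c-cKO minus that in *Mef2c* f/f mice was called for 0 of 9 genes with limma, where 0.00778% of 12860 genes were called, and 0 had an unadjusted p of 0.05 or less. The estimates were imprecise for the inducible HSP70 genes, 0.37 ± 0.50 for *Hspa1b* and 0.33 ± 0.66 for *Hspa1a*, and the narrowest belonged to *Dnaja1*, -0.17 ± 0.11. The response in *Mef2c* f/f minus that in WT mice was called lower for 2 of 9 genes, where 5.78% of 13106 genes were called lower: *Hspa1b* with -1.86 ± 0.47 (adjusted p = 0.0240) and *Hspa1a* with -1.24 ± 0.39 (adjusted p = 0.0430). No member was called higher. With CPM as deposited the median over all genes moved to -0.30 (507 genes higher and 2919 lower, against 1225 and 758), and *Hspb1* was called too (-0.86, adjusted p = 0.0448). With GC content and length corrected, both calls ended (*Hspa1b* -1.34, adjusted p = 0.0746, and *Hspa1a* -0.67, adjusted p = 0.320). With a replicate block 0 members and 0 genes were called, and 0 members without *Mef2c* f/f CS replicate 2 or 4 or SD replicate 1 or 3. Fewer than 2 members were called in 12 of the 20 fits that leave out 1 library, those included. The genotypes differ in line, in depth and in how the listed CPM sum, and these cannot be told apart from the genotype.

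*Hspb1* (-0.68 ± 0.31, adjusted p = 0.107) and *Dnajb1* (-0.50 ± 0.25, adjusted p = 0.133) had smaller responses in *Mef2c* f/f than in WT as point values but were not called. *Hsp90aa1* had a value of the opposite sign (0.66 ± 0.30, adjusted p = 0.111), with a response of -0.37 in WT and 0.29 in *Mef2c* f/f. Neither of those responses was called in its own genotype. For blood markers, which moved with *Hspa1b* in WT, all 5 were called lower in the same difference of responses, where 5.78% of all genes tested were. Their sum ran from 123 to 182 in *Mef2c* f/f CS and from 56.3 to 105 in SD, and their part was not tested.

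Within groups *Hspa1b*, *Hspa1a* and *Dnajb1* varied together from mouse to mouse in WT, while *Hsp90aa1*, the inducible HSP90, did not follow *Hspa1b*. Over the 20 WT libraries, deviations of *Hspa1b* from its group mean had a Pearson r of 0.900 with *Hspa1a* (Spearman rho 0.863, r 0.850 without the 2 libraries farthest from the median of *Hspa1a*) and 0.828 with *Dnajb1* (rho 0.806, r 0.799 without 2). The permutation p within groups was 1e-05 for *Hspa1a*, the smallest that 100000 resamples can give, and 2e-05 for *Dnajb1* (0.00013 adjusted over 13 relations for each). With *Hspb1* r was 0.627 (adjusted permutation p = 0.0550) and fell to 0.330 without 2 libraries. With *Hspa8* (0.255), *Hsph1* (0.311), *Dnaja1* (0.139), *Hsp90aa1* (-0.296) and *Hsp90ab1* (-0.107) the adjusted permutation p was at least 0.228.

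The abundant members also varied with each other over the same 20 deviations, given as a description without a test. The r was 0.884 between *Hsp90aa1* and *Hsp90ab1*, 0.858 between *Hspa8* and *Hsp90ab1*, 0.849 between *Hspa8* and *Hsph1*, and 0.842 between *Hsph1* and *Dnaja1*, while *Dnajb1* had -0.397 with *Hsp90aa1*. *Hspb1* and *Hspa1a* also varied with some of these, as *Hspb1* had 0.728 with *Hsph1* and 0.672 with *Hspa8*, and *Hspa1a* had 0.553 with *Hsph1*. Over the 13 *Mef2c* f/f and Mef2c-cKO libraries, *Hspa1b* had an r of 0.897 with *Hspa1a* (adjusted permutation p = 0.0408), 0.839 with *Hspa8* (0.0137) and 0.650 with *Dnajb1* (0.00208), the last falling to 0.332 without 2 libraries. Genes of 1 library share its scaling factor and its tissue piece, whose part in these values was not tested.

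*Hspa1b* was also set against the depth and the scaling of the libraries. In WT its deviations had an r of -0.568 with log2 total reads (rho -0.499, permutation p = 0.0212, 0.0550 adjusted over 13 relations), r -0.541 without 2 libraries, so the relation did not pass after adjustment. With the scaling factor, which divides every level, r was 0.549 (adjusted permutation p = 0.0607), rho 0.645 (adjusted permutation p = 0.0383) and r 0.627 without 2 libraries. The 2 RS libraries with the highest *Hspa1b* had 53595657 and 69618174 reads, the lowest of that group, and the CS library with the highest, replicate 5, had 44395583 reads, the lowest of CS. In the other genotypes r with depth was -0.332 (adjusted permutation p = 0.229). The labels name no sequencing run or batch, and the part of depth and scaling in the spread was not tested.

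**Figure D4:**
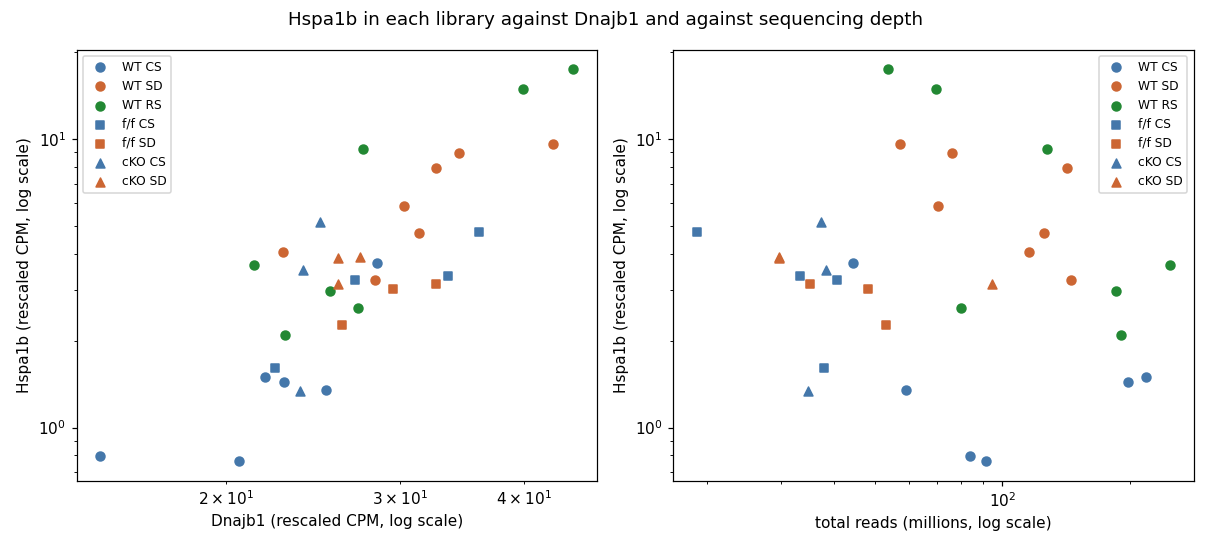
*Hspa1b* in rescaled CPM (vertical axes, log scale) against *Dnajb1* in rescaled CPM (left, log scale) and against total reads (right, log scale), with 1 point per library. Colours give the sleep condition and symbols the genotype. The points are levels, while the r values are for deviations from the WT group means. *Hspa1b* was higher where *Dnajb1* was higher, with r 0.828 within WT groups. With log2 total reads r was -0.568, which did not pass after adjustment (adjusted permutation p = 0.0550).

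The partners and regulators of the 9 genes were described from 8 further lists of chaperone genes. Of 61 listed genes tested between WT CS and SD, 18 were called higher and 7 lower, beside 24.6% and 20.5% of all genes tested. The count moved with the processing, to 34 and 0 with CPM as deposited, 9 and 5 with GC content and length corrected, 15 and 8 with edgeR, 12 and 0 without the 4 libraries of the lowest listed CPM sums, and 1 and 0 with a replicate block. From CS to RS it was 10 higher and 0 lower, beside 9.28% and 8.22% of all genes, with 18 and 0 from CPM as deposited, 3 and 1 with the GC correction and 2 and 0 of 65 without a filter. Between SD and RS, and between CS and SD in *Mef2c* f/f or in Mef2c-cKO mice, limma called 0 of these genes.

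HSP90 co-chaperones, which load clients onto HSP90 or tune its cycle, were the longest list, with 6 of 13 called higher and 1 lower in WT SD, where 24.6% and 20.5% of all genes were (median log2 fold change 0.14, against 0.04 over all genes). The count was 8 and 0 with CPM as deposited, 5 and 0 with the GC correction and 1 and 0 with a replicate block. *Unc45a*, a myosin chaperone that binds HSP90, rose from 11.8 ± 4.27 to 19.98 ± 2.501 rescaled CPM (log2 fold change 0.81 ± 0.21, adjusted p = 0.00761). *Fkbp5*, an immunophilin of steroid receptor complexes and a glucocorticoid target, rose from 23.4 ± 2.85 to 38.9 ± 4.11 (0.72 ± 0.10, adjusted p = 0.000419). *Cdc37*, which brings kinases to HSP90, rose from 35.2 ± 2.83 to 55.5 ± 9.83 (0.64 ± 0.11, adjusted p = 0.00140). *Fkbp4*, the immunophilin that competes with *Fkbp5*, rose from 56.2 ± 8.79 to 79.1 ± 14.1 (0.48 ± 0.12, adjusted p = 0.00785), and it was also called higher in Mef2c-cKO than in *Mef2c* f/f mice in SD (0.40 ± 0.09, adjusted p = 0.0193).

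In RS, 5 of the 13 HSP90 co-chaperones were called higher than in CS and 0 lower, where 9.28% and 8.22% of all genes were, and 2 were without a filter or with the GC correction. Calls over all genes in this comparison fell to 0 where CS replicate 3 or RS replicate 3, 5, 6 or 12 was left out. The 5 were *Unc45a* (0.74), *Cdc37* (0.56), *Fkbp5* (0.48), *Fkbp4* (0.44) and the phosphatase *Ppp5c* (0.40), all of which were also called in SD. HSP90 itself was not called in either comparison. In the difference of responses between *Mef2c* f/f and WT, 3 of the 13 were called lower and 3 higher, where 5.78% and 9.35% of all genes were. With a replicate block 0 genes were called in that difference, and 23 without *Mef2c* f/f SD replicate 3, against 1983.

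Among HSP70 nucleotide exchange factors and co-chaperones, 3 of 9 were called higher and 1 lower in WT SD (median 0.26), where 24.6% and 20.5% of all genes were, and 0 and 1 with the GC correction. *Hspbp1*, an exchange factor, rose from 23.2 ± 12.6 to 39.7 ± 9.08 (0.93 ± 0.32, adjusted p = 0.0264), *Bag6*, a holdase for membrane proteins, had 0.71 ± 0.25 (adjusted p = 0.0290), and *Stub1*, the ubiquitin ligase CHIP, had 0.55 ± 0.12 (adjusted p = 0.00327). *Bag4* fell by 0.40 on the log2 scale (adjusted p = 0.0213). *Bag1* was called higher in Mef2c-cKO than in *Mef2c* f/f mice in CS (0.52 ± 0.09, adjusted p = 0.0155).

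Of 5 heat shock factors and their binding protein, *Hsf4* was called higher in WT SD (0.60 ± 0.16, from 3.83 to 5.95 rescaled CPM, adjusted p = 0.00906) and in RS (0.57), and *Hsf2* (-0.33, adjusted p = 0.0311) and *Hsf5* (-0.44, adjusted p = 0.0317) were called lower in SD. Of all genes tested in WT SD, 24.6% were called higher and 20.5% lower. With the GC correction 0 of the 5 were called higher and 1 lower. *Hsbp1*, which binds HSF1 and limits it, was called higher in Mef2c-cKO than in *Mef2c* f/f in CS (0.38 ± 0.10, adjusted p = 0.0471).

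Among the other J-domain proteins 2 of 9 rose in WT SD, *Dnajb5* (0.57 ± 0.16, adjusted p = 0.0122) and *Dnajb2* (0.54 ± 0.16, adjusted p = 0.0134), and *Dnajb4* fell by 0.32 (adjusted p = 0.0118). Of 6 other HSP70 and HSP110 genes tested, *Hspa12b*, an endothelial member of the family, rose (0.31, adjusted p = 0.0218) and *Hspa4l*, an HSP110, fell by 0.44 (adjusted p = 0.0240). In SD, *Hspa12a* was called lower in Mef2c-cKO than in *Mef2c* f/f mice (-0.50, adjusted p = 0.0496). Of all genes tested between WT CS and SD, 24.6% were called higher and 20.5% lower. With the GC correction 0 genes of either list were called in WT SD.

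Of 8 other small heat shock proteins 5 were tested, and *Hspb8*, which works in a complex with BAG3, rose from 4.63 ± 1.21 to 9.55 ± 2.05 in WT SD (0.98 ± 0.17, adjusted p = 0.00114) and was higher in RS (0.82, adjusted p = 0.0345), while *Hspb11* was called lower in SD (-0.41, adjusted p = 0.0362). Of 7 subunits of TRiC, the ring-shaped chaperonin that folds actin and tubulin, *Cct7* (0.47, adjusted p = 0.00544) and *Cct4* (0.31, adjusted p = 0.0424) rose and 0 fell. Of 7 mitochondrial chaperones, *Grpel1* (0.43, adjusted p = 0.0140), the exchange factor of mitochondrial HSP70, and *Hspe1* (0.43, adjusted p = 0.0384), the partner of HSP60, rose and 0 fell. These counts stand beside 24.6% called higher and 20.5% called lower among all genes tested in WT SD. With the GC correction 1 small heat shock protein was called higher and 3 lower, 2 TRiC subunits higher and 1 mitochondrial chaperone higher.

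The genes whose levels followed each member most closely over the 20 WT libraries were searched among 12945 genes, as a description in which the sleep groups, the scaling and the base composition are shared. *Hspa1b* was closest to *Manf* (r 0.974), which encodes a secreted factor of endoplasmic reticulum stress, and then *Romo1* and *Slc25a3* (0.959 for each), and *Hspa1a* to *Mrpl17* (0.951), *Manf* (0.945) and *Hspa1b* (0.944). Over the 13 other libraries r with *Manf* was 0.367 for *Hspa1b* and 0.321 for *Hspa1a*. *Hsp90aa1* was closest to *Mak16* (0.974, and 0.774 in the other 13) and to *Hsp90b1*, the HSP90 of the endoplasmic reticulum (0.973, and 0.686), and then *Ddx1* (0.966).

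*Hspb1* was closest to *Lsm14b* (0.946), *Pdia6* (0.934) and *Hspa5*, the HSP70 of the endoplasmic reticulum (0.931), *Hsph1* to a clone-named gene, *RP23-118L1.1* (0.932), *Pdia3* (0.932) and *Rraga* (0.911), and *Dnaja1* to *Acot13* (0.907), *Zc3h15* and the HSP110 gene *Hspa4* (0.901 for each). *Dnajb1* was closest to *Rpl34* (0.972), *Tmem151b* (0.971) and *Hagh* (0.970), *Hspa8* to *Pop5* (0.924), *Psma5* (0.920) and *Nedd8* (0.913), and *Hsp90ab1* to *Smarce1* (0.961), *Atp6v1g2* (0.953) and *Tmem127* (0.951). Over the other 13 libraries the r of *Dnajb1* with *Rpl34* was -0.462.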

How the data were processed

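RNA from 33 frontal cortex samples, 1 mouse each, was sequenced by the authors as stranded libraries of polyadenylated RNA. For the deposited CPM the authors used FASTQC and Trimmomatic on the reads, STAR to place them on mm10, HTSeq to count those that mapped once, and edgeR to scale the counts. The annotation release is not given in the sources used here. Dividing by the smallest value of each library gave whole reads for 100% of 711645 values (within 0.01). No member was at 0 reads. Read numbers bear on counting error only.

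The scaling factors were medians of ratios over 11570 genes, and log2 was taken after 0.5 was added, so fold changes of low genes are understated. The compared groups were fitted with limma 3.58.1 (R 4.3.3, eBayes with trend), on genes that reached a CPM of 1 in each library of a compared group, with p-values adjusted over all genes tested. For interactions the adjusted p decided the call. Exact permutation tests were two-sided, and correlations used 100000 permutations within groups (Python 3.11.15). GC content and length came from GENCODE M21, in which 19230 symbols and 239 synonyms matched, and the trend was a natural spline (5 and 4 degrees of freedom). Scripts were tested on simulated data. Alternatives were other pseudocounts, scalings, filters and thresholds, a GC and length correction, edgeR 4.0.16 and DESeq2 1.42.0 on the recovered reads, the pair summed, a fit over all groups, a replicate block and each library left out. One alternative, leaving out libraries whose listed CPM summed to less than 950000, was chosen after seeing the data.

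The named genes are the 9 members, up to 4 called genes of each list by size of change, and the 3 genes closest to each member by Pearson r. The members and lists were chosen with earlier results of these data known.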

Additional observations from a re-analysis of the deposited data

Results flagged for a closer look

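Of 40 sets of libraries (9 genes and the *Hspa1a* and *Hspa1b* sum, in 4 groups of 4 to 7 libraries) 3 held 1 library far from the others, where chance gives about 5%. In WT CS replicate 5, *Hspa1b* was at 3.73 rescaled CPM, with the next library at 1.502, and the sum of *Hspa1a* and *Hspa1b* at 6.91, with the next at 3.68. In WT SD replicate 1, *Hsp90ab1* was at 1856, with the next library at 1276.

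The response to SD was lower in *Mef2c* f/f than in WT mice for *Hspa1b* by a limma interaction of -1.86 (adjusted p = 0.0240) and for *Hspa1a* by -1.24 (adjusted p = 0.0430). The adjusted p was 0.0746 for *Hspa1b* and 0.320 for *Hspa1a* with the GC and length correction, and neither was called with a replicate block or without *Mef2c* f/f CS replicate 2 or 4 or SD replicate 1 or 3. Fewer than 2 members were called in 12 of the 20 fits that leave out 1 library.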

How the results depend on the processing

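Under 1845 refits of the 81 member log2 fold changes, 1774 kept their side of the threshold (142 uncalled values changed sign), 63 lost a call, 6 gained one and 2 turned sign with a call, *Hspa8* in WT CS to SD (0.50, quantile normalization) and *Dnaja1* there (0.39, GC and length correction). The cause was not tested. Members called were 4 from WT CS to SD, 2 with the GC and length correction, 3 (without *Dnajb1*) when libraries of a listed CPM sum under 950000 were left out, and 4 whichever single library was left out. From CS to RS they were 3, 1 with quantile normalization, 0 without a filter, 0 with the GC correction, 1 without the libraries of low sums, and 0 to 3 with 1 library left out (0 without CS replicate 1, 2 or 3 or RS replicate 3, 4, 5, 6 or 12). From *Mef2c* f/f CS to SD they were 0 to 1 with 1 library left out, and between genotypes in SD 1 with CPM as deposited and 1 with quantile normalization. For the *Mef2c* f/f minus WT response, called for 2, the number was 1 with quantile normalization, 1 without a filter, 0 with the GC correction, 1 without the libraries of low sums and 0 to 2 with 1 library left out (0 without *Mef2c* f/f CS replicate 2 or 4 or SD replicate 1 or 3). That number was below 2 in 12 of the 20 fits that leave out 1 library. The *Hspa1a* and *Hspa1b* sum kept 1.22 from CS to SD (adjusted permutation p = 0.133) and 1.32 from CS to RS (0.183) without the libraries of low sums, and with 1 library left out 1.28 to 1.53 (adjusted p at most 0.0354) and 1.10 to 1.53 (0.0221 to 0.0663).

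Whether the replicate numbers of the labels pair the mice was not settled by the values. Deviations of same-numbered libraries correlated from -0.726 to 0.666. From WT CS to RS they correlated from 0.0681 to 0.666, with 5 of 6 over 0.1. Some libraries, but not all, were closest to their own number. With the number as a replicate block, members called were 3 from WT CS to SD (287 genes in all, against 5825), 4 from CS to RS (4279, against 2232, *Dnajb1* added) and 0 in the *Mef2c* f/f minus WT response (0 genes, against 1983). Genotype comparisons have no paired fit here because fewer than 2 numbers are shared. Low reads limit *Hspb1* in *Mef2c* f/f mice.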
